A study of Mus musculus with 15 samples.

Results

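Il7r, Crlf2, Flt3 and Kit encode receptors through which early lymphoid and progenitor cells receive growth and survival signals, and the histone marks at these 4 genes were followed while pre-B cells turned into macrophage-like cells. The 4 genes were chosen by name from 22350 protein-coding genes of the mm9 annotation. For each gene, sequenced ChIP tags were counted in the 3 kb centred on its transcription start and in adjoining 3 kb windows over the gene body and 50 kb on either side, which gave 199 windows among 831460 in the genome. The cells were C10 cells, 1 mouse pre-B line derived from HAFTL cells that carries an estrogen-inducible C/EBPα fused to the estrogen receptor, with GFP as its tag. Per the labels, induced cells received 100 nM β-estradiol with 10 nM IL-3 and CSF-1, and control cells received 0.1% ethanol. The study's methods give the β-estradiol dose in another, larger unit, so its concentration is uncertain. H3K27Ac, a mark of active promoters and enhancers, H3K4Me1, which marks enhancers both poised and active, and H3K27Me3, a mark of Polycomb repression, were each mapped at 0, 3, 12, 24 and 48 hr post-induction (hpi). Each of the 15 combinations of mark and time is a single library without replicates, so no test between times was made. C/EBPα activation, estradiol, the cytokines and time in culture cannot be told apart in this design, and in bulk chromatin fewer cells with a mark cannot be told apart from less of the mark per cell.

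Il7r is the IL-7 receptor α chain, which pairs with the common γ chain (Il2rg) to bind IL-7 and with Crlf2 to bind TSLP. Both complexes signal through JAK kinases and STAT5, and IL-7 is the main growth factor of mouse pro-B and pre-B cells. Flt3 and Kit are receptor tyrosine kinases that bind Flt3 ligand and stem cell factor (Kitl). Both mark stem and progenitor cells, Flt3 is repressed by Pax5 when B cells commit and is used by dendritic cell progenitors, and Kit stays on in mast cells.

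The deposited libraries held 11.04 to 31.56 M tags of 36 bp. Identical positions were reduced to 1 tag and libraries of a mark were thinned to equal size, 15.22 M tags for H3K27Ac, 10.91 M for H3K4Me1 and 15.34 M for H3K27Me3. A 3 kb window is called enriched at 34 tags or more for H3K27Ac and H3K27Me3 and 27 or more for H3K4Me1, where the Poisson chance over the genome mean of 18.3, 18.4 and 13.1 tags is below 0.001. Changes are log2 ratios with 5 tags added, and a window is called higher or lower where the change is at least 2-fold and the larger count is enriched. Brackets give exact 95% intervals, which cover counting error only. Those after a change are for the ratio of the counts without added tags, so at low counts they are not centred on the change. The labelled cell type was checked on markers: H3K27Ac at the start was lower at 48 than at 0 hpi at 9 of 9 B lineage genes (10157 to 3277 tags in sum) and higher at 8 of 8 macrophage genes (757 to 3860 tags), where 7.28% of all starts were lower and 3.23% higher.

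The 4 promoters differ in sequence, and the 250 bases before each start are shown because they set Il7r, which is poor in CpG, apart from the other 3. They were read from NCBIM37 (mm9), 5′ to 3′ on the strand of the gene, and capitals mark matches to 5 motifs searched on both strands: TTGCNNAA (C/EBP), GAGGAA (PU.1), CCCNNGGG (EBF1), TGTGGT (RUNX) and TTCNNNGAA (STAT). The Il7r stretch lies at chr15:9459632-9459881 on the minus strand, that of Crlf2 at chr5:109988013-109988262 (minus), that of Flt3 at chr5:148212066-148212315 (minus) and that of Kit at chr5:75970691-75970940 (plus).
Il7r: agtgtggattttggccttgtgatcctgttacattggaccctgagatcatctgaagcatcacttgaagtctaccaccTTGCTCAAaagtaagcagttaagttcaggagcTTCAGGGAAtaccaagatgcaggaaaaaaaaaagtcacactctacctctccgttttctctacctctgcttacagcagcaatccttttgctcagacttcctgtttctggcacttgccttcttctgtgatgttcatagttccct
Crlf2: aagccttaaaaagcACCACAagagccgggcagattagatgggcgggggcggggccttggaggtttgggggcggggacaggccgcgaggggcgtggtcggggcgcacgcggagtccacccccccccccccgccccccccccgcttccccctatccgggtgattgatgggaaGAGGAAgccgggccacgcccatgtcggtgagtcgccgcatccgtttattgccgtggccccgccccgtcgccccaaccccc
Flt3: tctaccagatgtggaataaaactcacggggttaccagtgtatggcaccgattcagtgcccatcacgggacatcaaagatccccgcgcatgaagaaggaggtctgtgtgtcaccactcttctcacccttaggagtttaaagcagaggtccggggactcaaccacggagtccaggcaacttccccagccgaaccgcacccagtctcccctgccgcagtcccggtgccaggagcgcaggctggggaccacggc
Kit: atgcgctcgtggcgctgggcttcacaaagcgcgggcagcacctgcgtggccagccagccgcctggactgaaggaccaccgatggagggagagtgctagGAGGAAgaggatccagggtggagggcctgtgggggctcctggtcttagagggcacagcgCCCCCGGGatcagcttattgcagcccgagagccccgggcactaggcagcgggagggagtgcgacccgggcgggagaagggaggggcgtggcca

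The Il7r promoter held 1 C/EBP match and 1 STAT match, that of Crlf2 1 PU.1 and 1 RUNX match, that of Kit 1 PU.1 and 1 EBF1 match, and that of Flt3 none of the 5. Of all 22350 promoter stretches of this length, 2011 held the C/EBP letters, and 23.0% held PU.1, 13.3% EBF1, 12.7% RUNX and 6.74% STAT. A match is a run of letters and says nothing of binding. Il7r had 1 CpG in these 250 bases, against 24 for Crlf2, 13 for Flt3 and 17 for Kit. Over the 3 kb at the start, Il7r held 18 CpG (percentile 12.0 of all starts), Flt3 106 (percentile 69.8), Crlf2 130 (percentile 81.9) and Kit 154 (percentile 89.6). The number of CpG did not order the genes by H3K27Ac, since Kit had the most CpG and the fewest tags.

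At the start windows, H3K27Ac was enriched at 2 of the 4 genes, Il7r and Crlf2, at every time, next to 46.3% of all starts at 0 hpi. The Il7r start, at chr15:9458132-9461131 over its first exon, held 1132, 1059, 496, 639 and 465 H3K27Ac tags at 0, 3, 12, 24 and 48 hpi. At 0 hpi this was 61.9 times the genome mean and more than at 99.5% of all starts, and at 48 hpi it was 25.4 times the mean. The counts of 0 and 3 hpi lie above the 3 later ones, with no overlap of their intervals, and the lowest count was that of 48 hpi. The log2 change was -0.10 at 3 hpi, -1.18 at 12 hpi, -0.82 at 24 hpi and -1.27 (-1.44 to -1.13) at 48 hpi, against a median of -0.14 over all starts at 48 hpi.

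Il7r was the only one of the 4 starts called lower for H3K27Ac at 48 hpi, and none was called higher, where 7.28% of all starts were lower and 3.23% higher. Flt3 and Kit were not enriched at 0 hpi and so could not be called lower at any time. Of the 10347 starts enriched at 0 hpi, 1628 were lower at 48 hpi. Scaled to bins that were enriched at all 5 times, the Il7r change was -0.87 and did not reach 2-fold. That scaling multiplies the H3K27Ac counts of 48 hpi by 1.33. At 12 hpi Il7r was likewise the single member called lower, and 2.01% of all starts were. Lineage markers were read beside the Il7r start. The B lineage list held 10157, 7528, 6424, 5892 and 3277 tags in sum in the order of the times. In these counts its course was not that of Il7r, which held 1059 tags at 3 hpi and went from 496 to 639 between 12 and 24 hpi. The 24 hpi library held fewer tags in background bins than that of 0 hpi, by a factor of 1.48. The B lineage sum was not rescaled, so the step from 12 to 24 hpi is uncertain, and a sum does not give the course of any single gene. Markers of T lineage cells, in which Il7r is also active, held 83 to 123 tags in sum with 0 of 6 called. Of these, 1 of 6 was enriched (Lck), next to 46.3% of all starts at 0 hpi. Their part in the change at Il7r was not tested.

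The Crlf2 start, at chr5:109986513-109989512, held 376, 385, 329, 435 and 358 H3K27Ac tags, which is 18.0 to 23.8 times the genome mean. Crlf2 encodes the TSLP-binding chain and shares Il7r as its partner, yet its counts at 0 and 48 hpi had overlapping intervals and a log2 change of -0.07 (-0.28 to 0.14). Scaled to the bins enriched at all times the change was 0.34. The Il7r count was 1132 against 376 at Crlf2 at 0 hpi and 465 against 358 at 48 hpi, so the 2 partners lay closer at the end of the series.

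The Flt3 start, at chr5:148210566-148213565, held 13, 32, 23, 28 and 28 H3K27Ac tags and was not enriched at any time. All 4 later counts were above that of 0 hpi, and the change at 48 hpi was 0.87 (0.11 to 2.18) with both counts under the level called enriched. The Kit start, at chr5:75969441-75972440, held 3, 3, 4, 3 and 3 tags, which is at most 0.22 times the genome mean. Its intervals, 0.619 to 8.77 at 3 tags, allow no change to be read at this depth. The order of H3K27Ac was Il7r, Crlf2, Flt3 and Kit at all 5 times, and the intervals of neighbours overlapped only for Flt3 and Kit at 0 hpi.

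H3K4Me1 gave another order. At 0 hpi, 44.7% of all starts were enriched for it. Il7r held 79, 107, 118, 105 and 110 tags and Flt3 70, 103, 90, 88 and 84, all enriched, and the intervals of these 2 genes overlapped at every time. Their changes at 48 hpi were 0.45 (0.05 to 0.91) and 0.25 (-0.21 to 0.74), below 2-fold. Crlf2 held 17, 17, 21, 13 and 15 tags and Kit 2, 2, 2, 2 and 1, none enriched, with overlapping intervals of these 2 at 24 hpi alone. None of the 4 starts was called for H3K4Me1 at 48 hpi, where 2.73% of all starts were higher and 4.09% lower.

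H3K27Me3 was enriched at 1 of the 4 starts, and at 15.9% of all starts at 0 hpi. Flt3 held 94, 95, 119, 81 and 82 tags, more than at 99.8% of all starts at 0 hpi and at 98.9% at 48 hpi, and its intervals of 0 and 48 hpi overlapped (log2 change -0.19, -0.64 to 0.25). Il7r held 5 to 7 tags, Kit 3 to 7 and Crlf2 1 to 6, and the neighbours among these 3 overlapped at every time. None of the 4 was called, where 0.483% of all starts were higher and 0.17% lower. The Flt3 start thus carried H3K4Me1 and H3K27Me3 together without enriched H3K27Ac at 0 and at 48 hpi. In the whole genome 551 starts (2.47%) had that combination at 0 hpi, and 232 of them (42.1%) had it again at 48 hpi.

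**Figure D1:**
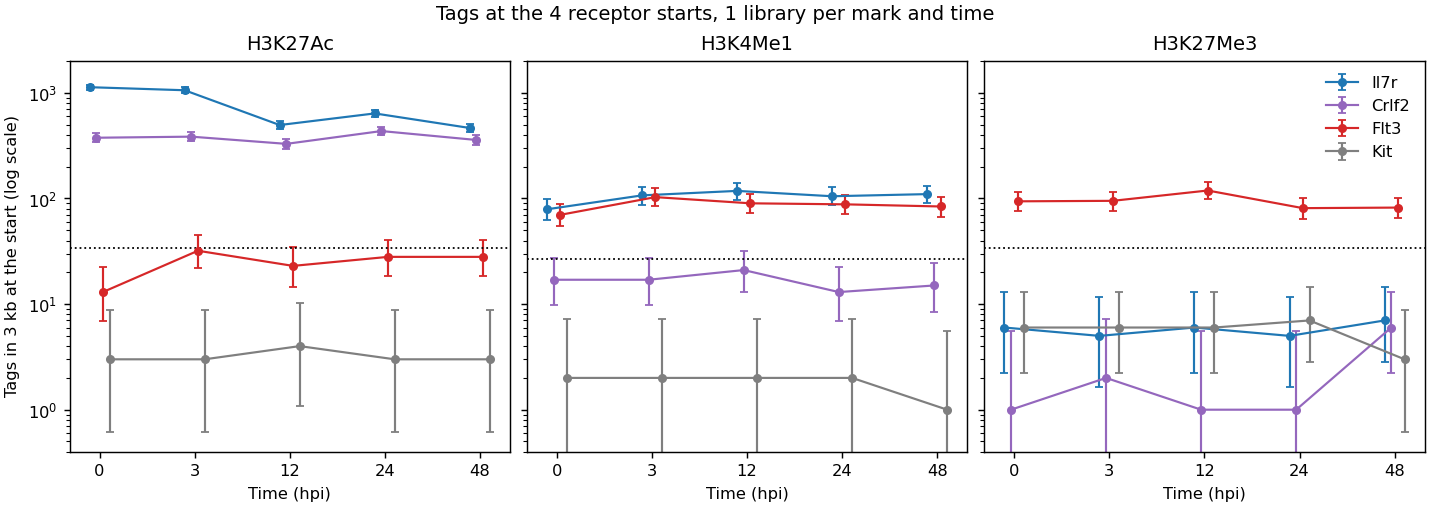
Tags in the 3 kb at the start of Il7r, Crlf2, Flt3 and Kit (log axis) against time (hpi, evenly spaced), with 1 panel per mark and 1 library per point. Bars are exact 95% Poisson intervals and the dotted line is the smallest enriched count. Il7r H3K27Ac lies at 1132 and 1059 tags at 0 and 3 hpi and at 465 at 48 hpi, Flt3 is the only gene above the line for H3K27Me3, and Kit is below it for all 3 marks.

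The loss of H3K27Ac at Il7r extended far beyond its start. The gene lies on the minus strand at chr15:9435916-9459631, and the 129 kb span held 43 windows, of which 36 were enriched for H3K27Ac at 0 hpi and 26 at 48 hpi, next to 6.32% of all windows in the genome at 0 hpi. The mean level over the span was 14.5, 13.8, 6.70, 6.52 and 4.84 times the genome mean in the order of the times. Between 0 and 48 hpi, 26 of the 43 windows were called lower and 1 higher, where 2.04% of all windows in the genome were lower and 4.04% higher. Only windows enriched at 0 hpi can be called lower. These 26 were thus among the 36 enriched at 0 hpi, where 32.2% of all windows enriched at 0 hpi were lower. Scaled to the bins enriched at all times the count lower was 20, and with background bins it was 26. A like span drawn over every protein-coding gene placed Il7r at percentile 99.7 of H3K27Ac at 0 hpi and 90.3 at 48 hpi.

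The window with the most H3K27Ac of the locus at 0 hpi lay downstream of Il7r. It was centred 66 kb past the start (chr15:9392132-9395131), over an exon of Capsl, and held 1377, 1493, 762, 850 and 437 H3K27Ac tags (log2 change at 48 hpi -1.64, -1.81 to -1.50). The window at +39 kb, between genes, held 1084, 1152, 433, 291 and 215 H3K27Ac tags and 230, 286, 161, 105 and 80 H3K4Me1 tags, the most H3K4Me1 of the locus at 0 hpi. In both windows the counts of 0 and 3 hpi were above all later ones. Capsl, which encodes a calcium-binding protein, and Spef2, a gene of the sperm tail, reach into the span but start outside it, so tags of a window over them cannot be assigned to 1 gene.

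The largest fall stood at +69 kb (chr15:9389132-9392131, a Capsl exon), where H3K27Ac was 469, 329, 83, 38 and 32 tags (log2 change -3.68, -4.44 to -3.36) and H3K4Me1 153, 142, 76, 48 and 19 (-2.72, -3.78 to -2.32). Every count of both marks in this window was lower than the one before it. The 250 bases of the window with the most H3K27Ac tags over the 5 times, at chr15:9391862-9392111 and outside every annotated exon, are shown on the strand of Il7r because they lie in the window that changed most, with 97, 80, 28, 11 and 7 tags.
Il7r +69 kb: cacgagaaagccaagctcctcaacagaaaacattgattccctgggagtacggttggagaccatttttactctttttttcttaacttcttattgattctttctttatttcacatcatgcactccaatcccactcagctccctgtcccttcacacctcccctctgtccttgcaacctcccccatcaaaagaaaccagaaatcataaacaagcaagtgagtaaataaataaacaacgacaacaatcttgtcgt

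This stretch held none of the 5 motifs. It lies at the edge of its window, beside the +66 kb window with 1377 H3K27Ac tags at 0 hpi. Whether it is a peak of its own or the flank of that larger one was not tested. Among the middle 250 bases of 87550 windows enriched for H3K27Ac at 0 or 48 hpi, 9.80% held the C/EBP letters, 21.9% PU.1, 6.36% EBF1, 19.3% RUNX and 7.48% STAT.

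The 2 sides of Il7r differed in when H3K27Ac was lower. Of the 12 upstream windows enriched at 0 hpi, 5 were at least 2-fold lower at 3 hpi, with a median log2 change of -0.81, where 17.2% of all windows enriched at 0 hpi were lower. Over the start and body, 0 of 9 were lower at 3 hpi and the median was 0.59, and downstream 0 of 15 were lower with a median of 0.09. The upstream window at -18 kb, for example, held 511, 157, 323, 271 and 170 tags, and that at -21 kb held 158, 60, 20, 42 and 26. Both were more than 2-fold lower by 3 hpi, while the +39 kb window was at 1152 tags then. The sides were not uniform: downstream, +75 kb went from 412 to 244 tags by 3 hpi and +57 kb from 243 to 156, falls of less than 2-fold, and upstream -51 kb went from 62 to 125 and -48 kb from 191 to 177.

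Downstream windows were lower from 12 hpi onward. There, 9 of 15 were lower at 12 hpi, 13 at 24 hpi and 14 at 48 hpi, with a median log2 change of -2.31 at 48 hpi, against 22.4%, 28% and 32.2% of all windows enriched at 0 hpi. Upstream, 5 of 12 were lower at 12 hpi, 3 at 24 hpi, a smaller share than that of all such windows, and 7 at 48 hpi with a median of -1.19, and over the start and body 5 of 9 were lower at 48 hpi with a median of -1.03. The median of all such windows at 48 hpi was -0.46. These sides were compared after the time courses had been seen, windows of a side adjoin each other, and no test of the difference was made.

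A single Il7r window was higher. At -27 kb (chr15:9485132-9488131, between genes) H3K27Ac was 67, 27, 77, 127 and 222 tags (log2 change 1.66, 1.33 to 2.14), lowest at 3 hpi and highest at 48 hpi. H3K4Me1 in the same window was 109, 107, 78, 79 and 97, with overlapping intervals at 0 and 48 hpi. The 2 marks thus did not move together there. The 250 bases of this window with the most H3K27Ac tags held 1 EBF1 and 1 RUNX match and no C/EBP, PU.1 or STAT match.

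H3K4Me1 was enriched in 36 of the Il7r windows at 0 hpi, next to 10.3% of all windows. It was lower in 10 windows and higher in 1 at 48 hpi, where 1.83% of all windows were lower and 4.08% higher. Scaled to background bins, which multiplies the H3K4Me1 counts of 48 hpi by 1.47, 5 were lower and 2 higher. Of the windows enriched at 0 hpi, 9 of 15 downstream, 1 of 14 upstream and 0 of 7 over the start and body were at least 2-fold lower, against 17.7% of all such windows. The window called higher, at +3 kb in the first part of the gene, held 36, 108, 129, 112 and 90 tags (log2 change 1.21, 0.75 to 1.92) while its H3K27Ac was 647, 798, 356, 429 and 351. At -42 kb, the window with the most H3K4Me1 at 48 hpi, counts were 219, 270, 309, 227 and 201, with overlapping intervals at 0 and 48 hpi. H3K27Me3 was not enriched in any of the 43 windows at any time, and the mean level was 0.34 to 0.48 times the genome mean.

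**Figure D2:**
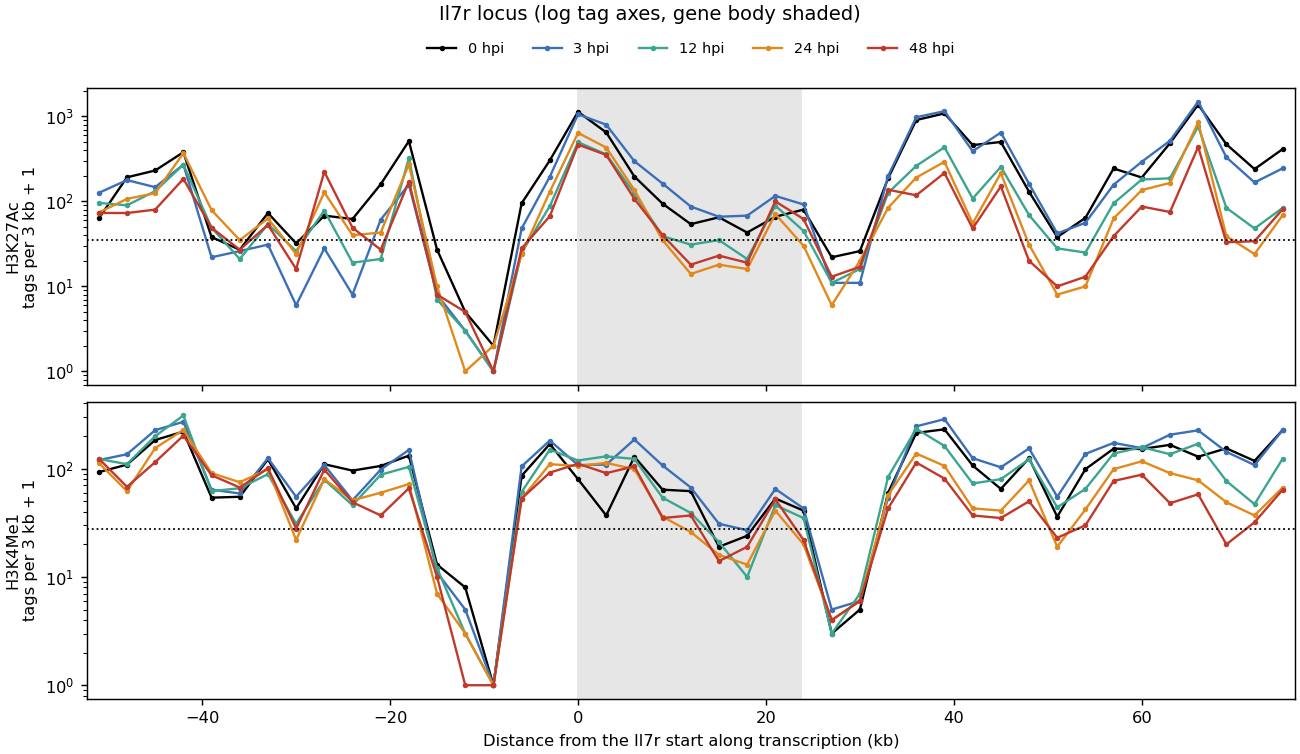
H3K27Ac and H3K4Me1 tags per 3 kb window plus 1 (log axes) against distance from the Il7r start along transcription (kb), with 1 line per time, the gene body shaded and the smallest enriched count dotted. The H3K27Ac lines of 0 and 3 hpi lie above the later ones from +36 to +75 kb, whereas between -30 and -18 kb the 3 hpi line of H3K27Ac is already below that of 0 hpi, and the window at -27 kb ends highest at 48 hpi (222 tags).

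At Flt3 both gains and losses of H3K27Ac lay inside the gene, away from its start. The gene lies on the minus strand at chr5:148142317-148212065, and 58 windows covered its 174 kb span. H3K27Ac was called higher in 6 windows and lower in 2 at 48 hpi, and H3K4Me1 higher in 9 and lower in 2, next to 4.04% and 2.04% of all windows for H3K27Ac and 4.08% and 1.83% for H3K4Me1. With background bins H3K4Me1 was higher in 14 windows and lower in 1. At 0 hpi, 8 windows were enriched for H3K27Ac and 20 for H3K4Me1, and only these could be called lower. Of all windows enriched at 0 hpi, 32.2% were lower in H3K27Ac and 17.7% in H3K4Me1. The losses at Flt3, 2 of 8 and 2 of 20, were thus no larger a share than in the genome. The mean H3K27Ac level of the span was 1.87 times the genome mean at 0 hpi and 2.63 times at 48 hpi, and that of H3K4Me1 2.50 and 3.38 times.

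The largest rise of any mark in the 4 loci was that of H3K27Ac at +12 kb in a Flt3 intron (chr5:148198566-148201565), with 7, 82, 287, 558 and 686 tags. Each count was above the one before it, and the window went from below the genome mean to the most H3K27Ac of the locus (log2 change 5.85, 5.56 to 7.93). H3K4Me1 rose beside it from 21 tags to 89, 187, 181 and 209 (3.04, 2.67 to 4.04), so that both marks were enriched from 3 hpi on. H3K27Me3 in the same window was 73, 67, 58, 39 and 33 tags (-1.04, -1.78 to -0.53), enriched until 24 hpi and under the line by 1 tag at 48 hpi. It was the single window of the 199 called for H3K27Me3, where 0.119% of all windows were lower and 0.489% higher, and with background bins the change was -0.90 and did not reach 2-fold.

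In 1 kb steps the gain of H3K27Ac ran from 7 to 13 kb past the start and was highest at 12 kb. The kilobase at 7 kb went from 24 to 94 tags between 0 and 48 hpi, that at 9 kb from 6 to 51 and that at 11 kb from 3 to 212. The kilobase centred at 12 kb held 0, 51, 176, 317 and 405 H3K27Ac tags and 25, 21, 23, 6 and 7 H3K27Me3 tags. That at 13 kb held 4, 11, 8, 22 and 69 H3K27Ac tags and 21, 26, 30, 31 and 24 H3K27Me3 tags. At 15 kb H3K27Ac was 4, 5, 6, 3 and 11 and H3K27Me3 14, 25, 35, 38 and 49. H3K27Me3 was thus lower at 48 than at 0 hpi at 12 kb and higher at 15 kb, where H3K27Ac stayed at 11 tags or fewer. The 250 bases with the most H3K27Ac tags (0, 20, 68, 112 and 132), at chr5:148200046-148200295 outside every exon, are shown on the strand of Flt3 as the centre of this gain.
Flt3 +12 kb: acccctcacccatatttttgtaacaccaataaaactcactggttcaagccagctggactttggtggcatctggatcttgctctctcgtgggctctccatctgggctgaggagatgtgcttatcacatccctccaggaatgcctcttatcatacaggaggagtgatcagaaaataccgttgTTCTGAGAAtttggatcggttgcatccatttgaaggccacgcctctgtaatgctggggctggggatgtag

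They held 1 STAT match and none of the other 4 motifs. The windows at +6 kb and +9 kb were also higher in H3K27Ac, with 29, 86, 169, 168 and 105 tags and 37, 75, 165, 249 and 214 tags. At +9 kb H3K4Me1 went along (56, 97, 187, 220 and 239), while at +6 kb it was 29, 47, 49, 21 and 26. Further into the gene, H3K27Ac at +21 kb was 3, 9, 10, 33 and 76 and at +39 kb 22, 25, 84, 169 and 106. The window at +3 kb, between these and the start, held 3 to 6 H3K27Ac tags at every time.

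The loss inside Flt3 lay near its 3′ end. At +60 kb (chr5:148150566-148153565, with a Flt3 exon) H3K27Ac was 475, 285, 72, 62 and 48 tags (log2 change -3.18, -3.77 to -2.88), and at 0 hpi this was the most of any window of the gene. The neighbour at +57 kb held 70, 32, 14, 8 and 9 H3K27Ac tags and 65, 43, 9, 7 and 9 H3K4Me1 tags, the largest fall of H3K4Me1 in the locus (-2.32, -4.04 to -1.84). Both windows were lower by 3 hpi than at 0 hpi and stayed low from 12 hpi. At +60 kb H3K4Me1 was 158, 170, 142, 114 and 68, so it was still close to its first count when H3K27Ac was at 72. The densest 250 bases of the +60 kb window, chr5:148152096-148152345 in intron sequence, held 78, 52, 8, 1 and 3 H3K27Ac tags and are shown on the strand of Flt3 as the counterpart of the gain.
Flt3 +60 kb: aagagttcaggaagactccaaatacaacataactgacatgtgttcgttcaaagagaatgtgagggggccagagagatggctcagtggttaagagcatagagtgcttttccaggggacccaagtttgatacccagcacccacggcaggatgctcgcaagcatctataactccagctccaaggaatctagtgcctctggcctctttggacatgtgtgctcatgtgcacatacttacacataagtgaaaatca

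None of the 5 motifs was found in them. At 0 hpi the +60 kb window held 475 H3K27Ac tags and the +12 kb window 7, and at 48 hpi the first held 48 and the second 686, so their order was reversed.

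H3K27Me3 covered most of the Flt3 span. It was enriched in 33 to 37 of the 58 windows depending on the time, and in 27 at all 5 times, where 14.1% of all windows were enriched at 0 hpi. The mean level of the span was 1.99 times the genome mean at 0 hpi, at percentile 93.7 of like spans over all genes, and 2.17 times at 48 hpi. The mark was low where H3K27Ac was high at 0 hpi, with 9 to 20 tags at +60 kb and 7 to 13 tags at +57 kb. At +15 kb, next to the gain of H3K27Ac, H3K27Me3 was 53, 59, 100, 98 and 106 tags (log2 change 0.94, with a lower bound of 0.51), just short of 2-fold, and with background bins the change was 1.08 and passed it. H3K27Ac in that window was 7, 16, 15, 7 and 29 tags, not enriched.

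Pan3, Prhoxnb and Cdx2 also start inside the Flt3 span. Pan3 encodes a subunit of a poly(A) nuclease and starts 30091 bp upstream on the other strand. Its start held 535, 603, 471, 526 and 402 H3K27Ac tags (log2 change -0.41, -0.60 to -0.22), the most H3K27Ac of the span at 0 hpi, and 1 to 9 H3K27Me3 tags. Prhoxnb, 78049 bp downstream of the Flt3 start, held 3 to 10 H3K27Ac tags and 52 to 69 H3K27Me3 tags. Cdx2, a homeobox factor of the intestine 93219 bp downstream, held 2 to 8 H3K27Ac tags and 17 to 31 H3K27Me3 tags. H3K4Me1 was highest at -33 kb in a Pan3 intron at 0 and 48 hpi, with 218, 239, 225, 257 and 245 tags and overlapping intervals.

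**Figure D3:**
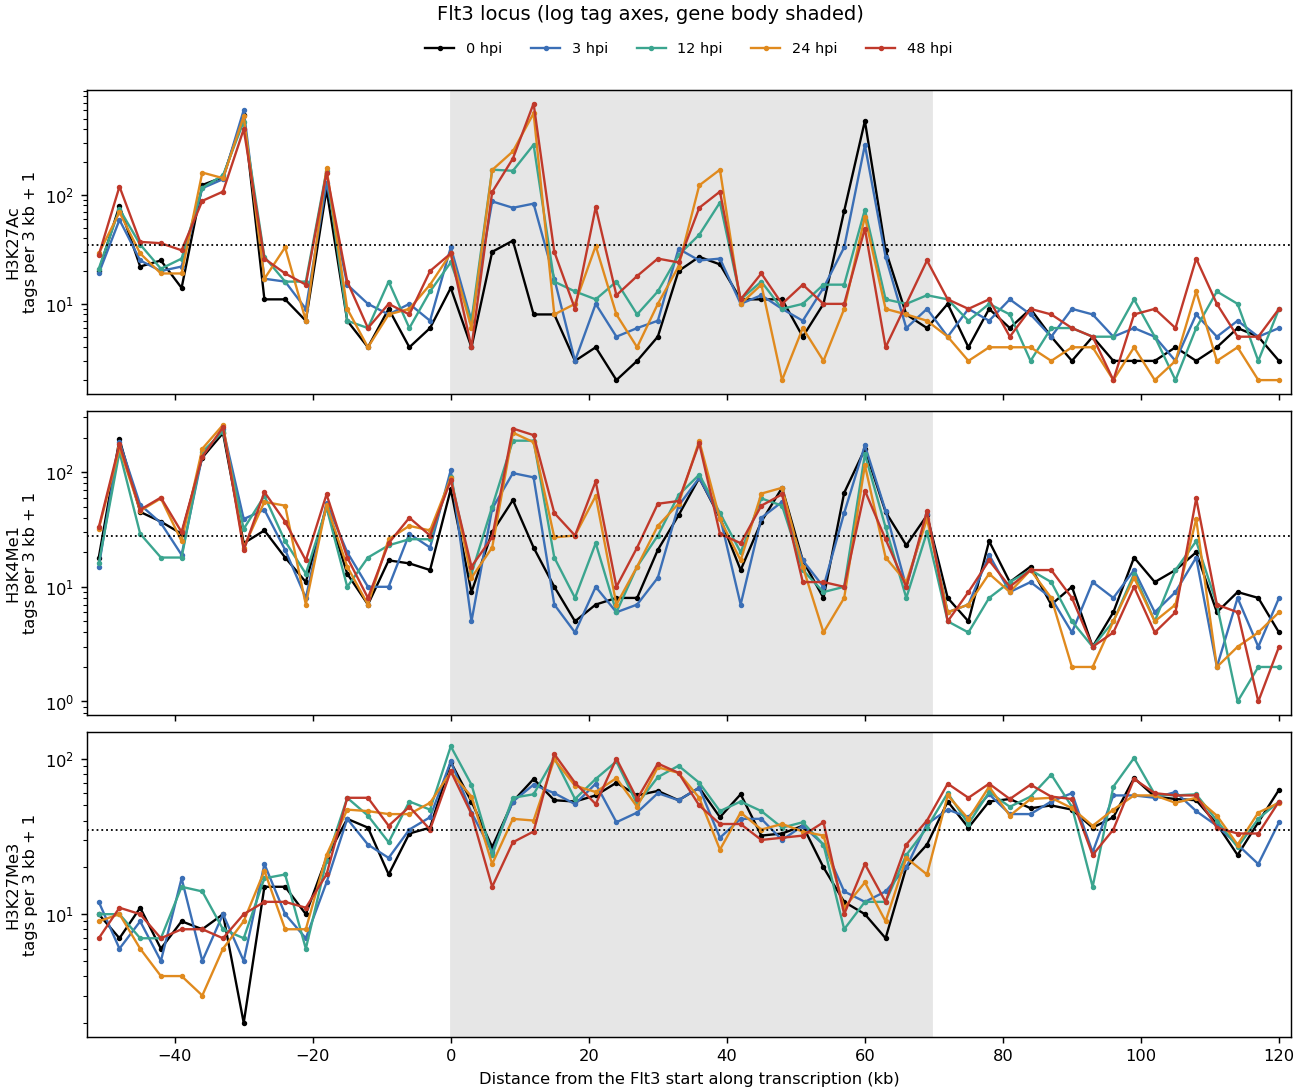
Tags per 3 kb window plus 1 (log axes) for H3K27Ac, H3K4Me1 and H3K27Me3 against distance from the Flt3 start along transcription (kb), with 1 line per time, the gene body shaded and the smallest enriched count dotted. H3K27Ac at +12 kb climbs from 7 to 686 tags while that at +60 kb drops from 475 to 48, and H3K27Me3 lies above the line over much of the gene and downstream of it.

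H3K27Ac at Crlf2 lay over the gene at all times, with 1 late gain outside it. The gene spans chr5:109983730-109988012 on the minus strand, and 36 windows covered 108 kb. At 0, 3, 12 and 24 hpi the start window and the next one were the only windows enriched for H3K27Ac, and the second held 157, 230, 173, 193 and 198 tags. At 48 hpi the window at +9 kb (chr5:109977513-109980512, between genes) joined them, with 7, 9, 15, 33 and 47 tags (log2 change 2.12, 1.59 to 4.14). It was the single window of the span called for H3K27Ac, and also the single one called for H3K4Me1, which held 13, 13, 20, 25 and 49 tags there (1.58, 1.01 to 2.92). A single window of 36 is a smaller share than the 4.04% and 4.08% of all windows that were higher in these marks.

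The change at +9 kb came late in both marks, with the highest count of each at 48 hpi and the 0 and 3 hpi counts within each other's intervals. In 1 kb steps most of it lay at 10 kb, with 3, 3, 6, 20 and 30 H3K27Ac tags. The 250 bases of the +9 kb window with the most H3K27Ac tags held 2 RUNX matches and no C/EBP, PU.1, EBF1 or STAT match. H3K27Me3 was enriched in no window of the span before 24 hpi. At -6 kb it held 19, 25, 22, 39 and 35 tags (log2 change 0.74, 0.04 to 1.77), and at -42 kb, the most of the span at 0 hpi, it held 33, 23, 11, 22 and 16. At -42 kb H3K4Me1 was 18, 11, 12, 10 and 9, also the most of the span at 0 hpi and not enriched.

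Kit carried none of the 3 marks. The gene lies on the plus strand at chr5:75970941-76052747, and 0 of the 62 windows over 186 kb were enriched for any mark at any of the 5 times. The highest counts of any window and time were 13 tags for H3K27Ac, 11 for H3K4Me1 and 24 for H3K27Me3. Of all 22350 genes, 2518 (11.3%) had a span without an enriched window in any library. The mean levels over the Kit span were 0.10 to 0.25 times the genome mean for H3K27Ac, 0.11 to 0.36 for H3K4Me1 and 0.49 to 0.67 for H3K27Me3.

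H3K27Me3 at Kit thus differed from that at Flt3, the other receptor tyrosine kinase of the set, whose span mean was 1.91 to 2.34. The Kit windows with the most tags show how low the locus was. For H3K27Ac they held 12, 3, 6, 4 and 4 tags at +54 kb, the most at 0 hpi, and 6, 6, 13, 1 and 8 at +39 kb, the most at 48 hpi. For H3K4Me1 they held 11, 3, 2, 2 and 3 at +48 kb and 3, 3, 4, 2 and 4 at +15 kb, and for H3K27Me3 21, 12, 15, 7 and 9 at +6 kb and 11, 16, 10, 9 and 17 at +117 kb. None of these sequences of counts left the range of unenriched windows.

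The Kit window at +69 kb had 0 tags in all 15 libraries and is not read as a level. Whether tags can be mapped there was not tested. Genome windows with 0 tags in all 15 libraries were left out of the shares of all windows, whereas this one is counted among those of the Kit span. The start window held 1 to 7 tags in every library. Among the 2324 starts with at least as many CpG as Kit, 581 (25.0%) had no enriched mark at any time, against 32.3% of all starts. Among markers of cells that use Kit, 2 lists were also low in H3K27Ac. The 6 mast cell genes held 16 to 37 H3K27Ac tags in sum at each time and 5 stem and early progenitor genes 18 to 51. In either list 0 were enriched at 0 or 48 hpi, where 46.3% of all starts were enriched at 0 hpi. Unlike Kit, some of them carried H3K27Me3, which was enriched at 2 mast cell genes at 0 hpi and 3 at 48 hpi and at 3 of the 5 stem and progenitor genes at both times, next to 15.9% of all starts at 0 hpi. H3K4Me1 was enriched at no gene of the 2 lists at 0 hpi, where 44.7% of all starts were enriched, and at 1 stem and progenitor gene at 48 hpi. The 5 erythroid markers differed from these lists. They held 101 to 150 H3K27Ac tags in sum, with 1 enriched at 0 and at 48 hpi. At both times H3K4Me1 was enriched at 3 of them and H3K27Me3 at 2.

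**Figure D4:**
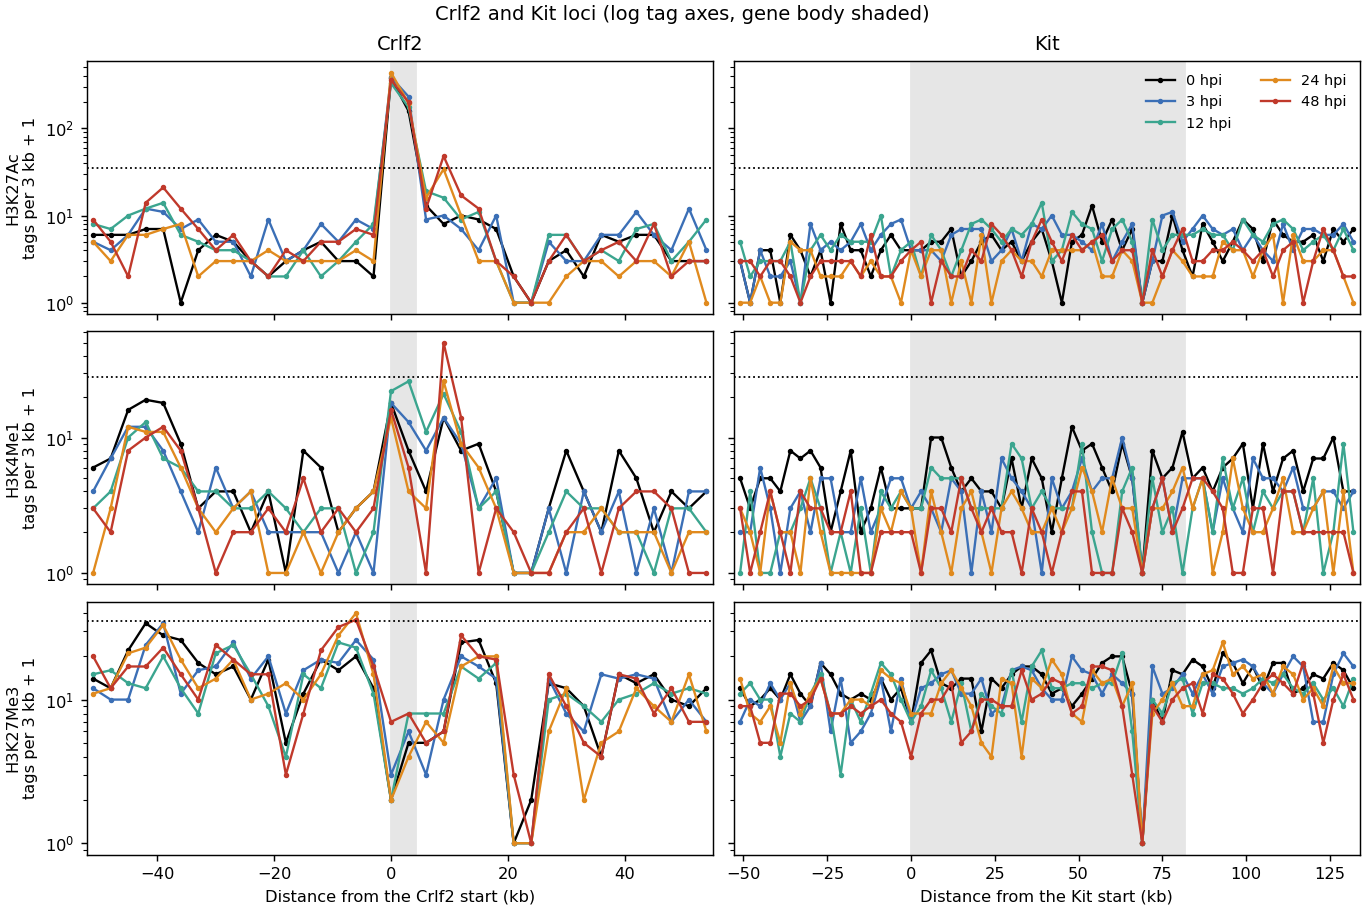
Tags per 3 kb window plus 1 (log axes) for the 3 marks over the Crlf2 (left) and Kit (right) loci against distance from the start along transcription (kb), with 1 line per time, gene bodies shaded and the smallest enriched count dotted. At Crlf2 the H3K27Ac lines of all times lie together at the start (329 to 435 tags) and part at +9 kb, and at Kit no line reaches the dotted one in any panel.

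For each member, the 3 starts with the most similar levels over the 15 libraries were found by the root mean square difference of log2 level. For Il7r these were Acss1 (0.26), Plscr3 (0.28) and Prkd2 (0.31), against 3.27 for the median start. Crlf2 was nearest to Hnrnpc (0.27), Otud5 (0.28) and Cdk13 (0.32), and Flt3 to Dbndd2, Mcam and Slc17a7 (0.34 to 0.37). Kit was nearest to Efhc2, Mpdz and Olfr1179 (0.19 to 0.20), starts that also held few tags. Among the members, Il7r and Crlf2 were 1.53 apart, nearer than the median start (3.27 for Il7r and 2.75 for Crlf2). Flt3 was 3.28 from Il7r and 3.32 from Crlf2, and Kit 3.06 to 4.39 from the other 3, farther than their median starts (2.56 for Flt3 and 2.04 for Kit).

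The genes around these receptors were read at their own starts. Only starts enriched at 0 hpi can be called lower, whereas the shares given beside the lists are of all starts. Among the 10347 starts enriched for H3K27Ac at 0 hpi, 1628 were lower at 48 hpi, a larger share than that of all starts. Among the 4 ligands, H3K27Ac was lower at 48 hpi at Flt3l, the ligand of Flt3, with 298, 216, 223, 190 and 94 tags (log2 change -1.61), and none was higher, beside 7.28% and 3.23% of all starts. Il7 held 123, 190, 272, 334 and 197 H3K27Ac tags (0.66) and was the single ligand called for H3K4Me1, with 29, 28, 99, 97 and 91 tags, where 2.73% of all starts were higher and 4.09% lower. Tslp held 2 to 13 H3K27Ac tags and Kitl 0 to 5. In H3K27Ac alone, the ligand of Kit was thus as low at its start as Kit itself. H3K27Me3 was enriched at 2 of the 4 ligand starts at 0 hpi and at 1 at 48 hpi, next to 15.9% of all starts at 0 hpi.

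Of the shared γ chain and 3 JAK kinases, 0 of 4 were called for H3K27Ac, and H3K4Me1 was lower at Il2rg (111 to 45 tags) and Jak3 (137 to 62), where 4.09% of all starts were lower, though with background bins both missed 2-fold (-0.71 and -0.57). Of 11 signal transducers, H3K27Ac was higher at Shc1 (51 to 186 tags, 1.77) and Gab2 (452 to 1032, 1.18), which are adaptors of receptor tyrosine kinases, and lower at Stat5b (278 to 128, -1.09), where 3.23% of all starts were higher and 7.28% lower. Stat5a, the neighbour and close relative of Stat5b, held 267 and 196 tags. Scaled to bins enriched at all times, Stat5b was at -0.69 and missed 2-fold. The median change of the transducers was -0.10.

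Of 9 inhibitors, H3K27Ac was higher at 2 and lower at none, next to 3.23% and 7.28% of all starts. Cish, a STAT5 target that restrains cytokine receptors, held 33, 174, 169, 259 and 194 tags (2.39), and Socs3, a feedback inhibitor of JAK signaling, held 122, 582, 310, 512 and 374 (1.58). Both were above their first count from 3 hpi on. Socs3 was also the single gene of the 8 pathway lists called for H3K27Me3, with 57, 68, 58, 25 and 18 tags (-1.43), where 0.17% of all starts were lower and 0.483% higher. The median H3K27Ac change of the inhibitors was -0.39.

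Of 9 survival and growth targets, H3K27Ac was lower at Ccnd3, the D cyclin of pre-B cells, with 1039, 394, 360, 317 and 238 tags (-2.10), and higher at none, with a list median of -0.54. Of these 9 starts, 8 were enriched at 0 hpi and could be called lower. This 1 call is to be read beside 1628 of the 10347 starts enriched at 0 hpi, or 7.28% of all starts. Bcl2, Mcl1 and Myc were not called (0.66, 0.34 and -0.41). Of 11 transcription factors measured from the list of 12 known to act on these receptor genes (Gfi1 has no coding transcript in the annotation), 3 were lower and 1 higher, against 7.28% and 3.23% of all starts. Myb held 765 and 96 tags (-2.93), Pax5 1069 and 275 (-1.94) and Foxo1, a regulator of Il7r, 889 and 281 (-1.64), while Tal1 held 101 and 253 (1.28). Spi1, which encodes PU.1, was not called (728 and 638 tags). Pax5 is a B lineage marker as well, and Hoxa9 and Meis1 of this list are also among the stem cell markers.

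Of 11 related receptors, 2 were higher and 1 lower in H3K27Ac, beside 3.23% and 7.28% of all starts. Csf1r, the CSF-1 receptor of macrophages, held 54, 109, 230, 533 and 269 H3K27Ac tags (2.22), Pdgfrb 18 and 50 (1.26), and Il21r 337 and 160 (-1.05, or -0.65 scaled to bins enriched at all times). Kdr and Flt1, kin of Kit and Flt3 on the same chromosome, held 0 to 3 tags. Among the 4 receptor genes for the cytokines in the medium, Csf2rb2 held 143, 291, 415, 554 and 449 tags (1.62) beside Csf1r, and Il3ra was not called (220 and 194). Over the 62 genes of the 8 lists, 8 starts were called higher and 7 lower, with Csf1r counted once, where 3.23% and 7.28% of all starts were. Most list starts were enriched at 0 hpi, so the 7 are not read as an excess over all starts. Of the starts enriched at 0 hpi, 1628 of 10347 were lower. For H3K4Me1, 1 start was higher (Il7) and 6 lower, where 2.73% and 4.09% of all starts were. Of the 9993 starts enriched for H3K4Me1 at 0 hpi, 913 were lower. Beside Il2rg and Jak3, the list starts lower in H3K4Me1 were Gab2 (42 to 9 tags), Pik3ca (39 to 17), the inhibitor Socs1 (96 to 31) and the related receptor Il9r (52 to 16). With background bins Pik3ca missed 2-fold as well (-0.56). At Gab2 the 2 marks went opposite ways.

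**Figure D5:**
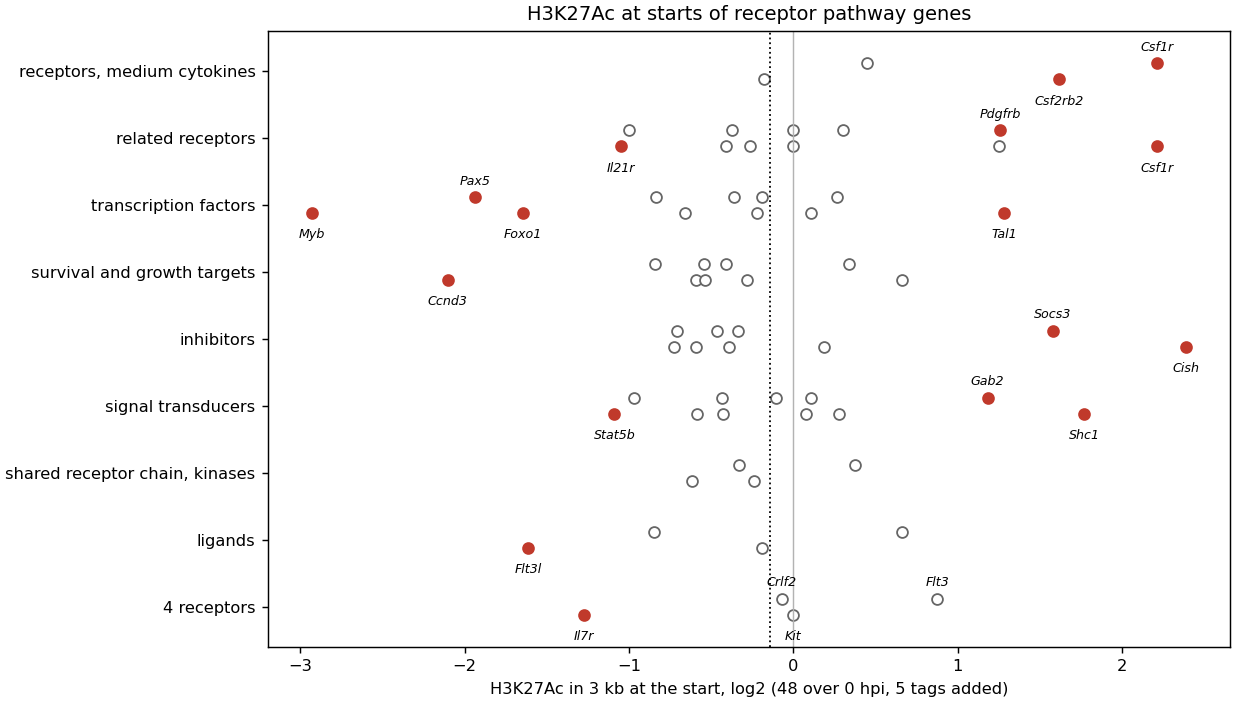
Log2 change of H3K27Ac at the start between 0 and 48 hpi (5 tags added) for the 4 receptors and 8 lists of pathway genes, 1 point per gene. Filled points are starts called higher or lower and the dotted line is the median of all starts (-0.14). Il7r lies at -1.27 and Flt3l at -1.61. Called genes of a list can go both ways: of the transducers, Stat5b is lower (-1.09) and Shc1 and Gab2 are higher. The inhibitors Cish and Socs3 lie at 2.39 and 1.58, whereas the median of the 9 inhibitors is -0.39.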

How the data were processed

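The authors aligned Illumina tags of 36 bp to mm9 without mismatches, with Eland or Bowtie per the labels and methods, and removed identical tags. Which aligner served which library is not given in the sources used here. The deposited files hold positions of tags without strand, not counts or normalized values. Identical positions were not treated alike: up to 205 tags shared one in H3K4Me1 at 0 and 48 hpi, none did in H3K27Me3 at these times, and up to 2 did elsewhere, so 1 tag per position was kept here. Tags were placed at their middle (18 bp), drawn at random down to each mark's smallest library and counted on chromosomes 1 to 19 and X with python 3.11.15, numpy 2.4.6 and scipy 1.17.1. Gene starts are those of the longest coding transcript in GENCODE vM1. Spi1 was found under its older symbol through RefSeq synonyms. Samples were grouped by the mark and time in their labels, 1 per group. Intervals are exact Poisson for counts and exact conditional binomial for ratios of 48 to 0 hpi. In simulated data with 22350 starts and 200 planted 4-fold changes, 100% were called for H3K27Ac, 100% for H3K4Me1 and 99.5% for H3K27Me3, with 1, 19 and 17 false calls. The changes were planted only at starts well above the enriched level, and counting error was the only noise. These rates therefore check the code and do not cover low counts, smaller changes or differences between libraries. Named windows are, per mark, those with the most tags at 0 and 48 hpi and the largest rise and fall among enriched windows, and other windows beside them and the 1 kb steps were picked after their values were seen. The genes, lists and rules were chosen with earlier results of these data known. Fold changes and calls use 5 added tags. Binding data and RNA of the study were not analysed here. 1 further signal transducer is not reported here and enters no count or median of the list.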

Additional observations from a re-analysis of the deposited data

How the results depend on the processing

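The 12 changes at the starts and 6 counts of windows were recomputed under 10 alternatives (windows of 6 and 2 kb, windows shifted by 1.5 kb, scaling by background bins or by bins enriched at all 5 times, no thinning, identical tags kept, 1 tag added, the 5′-most start, tags placed at their start). Of 156 values, 142 stayed within the counting interval or within 1.5 times the count and 14 moved. Among start changes whose interval excludes 0, 0 changed sign. Of the 108 start values, 92 kept their sign, and the others belong to changes whose interval holds 0, those of H3K27Ac at Crlf2 and Kit (0 as reported), H3K4Me1 at Crlf2 and Flt3 and H3K27Me3 at Il7r. Without thinning, with identical tags kept, with 2 kb windows, the 5′-most start, shifted windows or tags placed at their start, none moved. Scaled to bins enriched at all times, H3K27Ac was -0.87 at the Il7r start and 0.34 at the Crlf2 start. Scaled to background bins, H3K4Me1 was 0.99 at the Il7r start and 0.77 at the Flt3 start, 6 windows were lower (12 as reported) and 17 higher (11 as reported), and H3K27Me3 was lower in 0 (1 as reported) and higher in 2 (0 as reported). In 6 kb windows H3K4Me1 at the Il7r start was 0.031, H3K27Ac was lower in 16 windows (28 as reported), H3K4Me1 lower in 7 and higher in 4, and H3K27Me3 lower in 0, where fewer, wider windows were counted. With 1 tag added, 1 window was higher in H3K27Me3. The cause of the other shifts was not tested. The H3K27Ac library of 24 hpi held fewer tags in background bins than that of 0 hpi, by a factor of 1.48, and the H3K4Me1 libraries of 12, 24 and 48 hpi by 1.55, 1.56 and 1.47. H3K27Ac at the Il7r start at 24 hpi was -0.82 as reported, -0.26 with background bins and -0.80 with enriched bins. Counts of a few tags, as at Kit, give no change at this depth. No paired analysis was possible because no group held more than 1 sample.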

Other observations

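H3K4Me1 over the Kit span, although enriched nowhere, had a mean level of 0.36 times the genome mean at 0 hpi and 0.11 at 48 hpi. With 0.05 added to each level, the log2 change was -1.32, lower than that of 99.3% of like spans over all genes, whose median was -0.14. Background bins of the genome also held fewer H3K4Me1 tags at 48 hpi, by 0.55 on the log2 scale, and the part of this in the Kit value was not tested. H3K27Me3 over the same span was 0.67 and 0.49 times the mean, a change of -0.42 on the same scale, against a median of 0.03 over all genes.

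Procr, one of the 5 stem and early progenitor markers read beside Kit and Flt3 and the gene of a receptor for activated protein C, was the single marker of its list called for H3K4Me1, with 9, 7, 27, 30 and 56 tags (log2 change 2.12), where 2.73% of all starts were higher. It held 3 and 32 H3K27Ac tags at 0 and 48 hpi. The gene was singled out after its values were seen.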
